A study of Caenorhabditis elegans with 18 samples.

Results

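The ceh-14 single mutant was compared with wild type, taking 6 of the 18 libraries in the series. Each library held poly(A) RNA of synchronized whole Caenorhabditis elegans at the fourth larval stage (L4), just before adulthood. The control was N2, the standard laboratory strain, and the mutant was TB528, which carries ch3, a deletion allele of ceh-14, in every cell from fertilization on. Each genotype had 3 libraries, lettered A, B and C. The other genotypes were fust-1 (csb21), tdp-1 (csb38) and both double mutants with ceh-14, and they serve here only as separate backgrounds in which ceh-14 was also lost. The mutant is a single strain, so loss of ceh-14 and anything else that differs between TB528 and N2 cannot be told apart, and whether TB528 had been outcrossed is not given in the sources used here. The study's methods call the libraries of a genotype biological replicates. Whether they came from separate cultures is not given in the sources used here, so the tests rest on a spread among libraries that may be technical in part.

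CEH-14 is a LIM homeodomain transcription factor. LIM homeodomain proteins act late in development to fix the identity of individual neurons, often together with a partner transcription factor. In C. elegans, CEH-14 works in a small number of head and tail neurons, among them the thermosensory neuron AFD, the sleep-promoting neuron ALA and the phasmid neurons of the tail, and it is also present in the spermatheca, the sac that stores sperm and in which eggs are fertilized.

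The 6 libraries held 19556372 to 119814176 counts in genes. Levels are given in CPM, counts scaled with TMM factors to one library total so that libraries can be compared. Of 46726 genes, 16299 passed the filter on low counts and were tested with edgeR's quasi-likelihood test. A gene was called when its p was under 0.05 after Benjamini-Hochberg adjustment across the whole table, and dysregulated when that p was under 0.01 and the log2 fold change beyond 1 in either direction. The comparison was fitted without the replicate letter and again with the letter as a block, which compares each mutant library with the wild-type library of its own letter. All 36 muscle markers, all 30 synaptic and pan-neuronal markers and 17 of 18 AFD markers passed the filter. Of genes found for phasmid and tail neurons 24 of 30 passed, and for male tail and seminal genes 16 of 24. At this depth, passing the filter does not check the tissue label. In whole-animal RNA, fewer cells of a type and less RNA per cell cannot be told apart.

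The transcript of ceh-14 itself (X, 7527769 to 7532732, minus strand, WBcel235) was lower in the mutant but was not lost. It stood at 5.45, 5.84 and 5.33 CPM in wild type A, B and C, and at 1.44, 1.90 and 2.08 CPM in the mutant. Every mutant library lay under every wild-type library, and the mutant mean was 32.6% of the wild-type mean. It fell by 1.604 ± 0.21 on the log2 scale (SE), with an adjusted p of 0.0723 without the block and 0.00988 with it. A two-sided exact permutation test gave p = 0.1, the smallest that 3 libraries against 3 allow. Where the remaining counts lie relative to the deleted part was not analysed here. Elsewhere in the series ceh-14 stood at 0.675 to 2.47 CPM in the 6 libraries of the double mutants. In the tdp-1 and fust-1 libraries it stood at 6.20 to 7.01 CPM, apart from fust-1 C at 2.70 CPM. That level is low for its label: it lies above every ceh-14 mutant library and under every other library not labelled ceh-14 mutant.

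Without the block, 15 genes were called, of which 12 fell (0.0736% of the genes tested) and 3 rose (0.0184%). Of these, 4 that fell (0.0245%) and 2 that rose (0.0123%) were dysregulated. With the letter as block, 209 genes were called, of which 45 rose (0.276%) and the others fell (1.01%). Dysregulated were 56 that fell (0.344%) and 11 that rose (0.0675%). All 15 genes called without the block were also called with it, in the same direction. In both fits, more of the called genes were lower in the mutant than higher. Falls and rises below are of the mutant relative to wild type, and those printed with ± are log2 fold changes with their SE.

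Transcripts close to absent from the mutant formed the sharpest group. K07A1.6 (I, 9591939 to 9593103) stood at 20.7, 31.1 and 29.6 CPM in wild type and at 0.206, 0.179 and 0.101 CPM in the mutant. That is 0.598% of the wild-type level, a fall of 7.31 ± 0.31 on the log2 scale (adjusted p = 0.000445). The libraries hold 4053 counts of it in wild type and 32 in the mutant, so the low level rests on few reads but on a well measured control.

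The cuticle collagen gene col-135 (IV, 15129655 to 15131797) read 63.9, 37 and 64.9 CPM in wild type and 0.740, 0.728 and 0.507 CPM in the mutant. It fell by 6.35 ± 0.31 (adjusted p = 0.000688). E02H9.7 (III, 2445243 to 2445674) went from 6.68, 7.31 and 9.55 CPM to 0.164, 0.0299 and 0.253 CPM, a fall of 5.89 ± 0.60 (adjusted p = 0.0190). Its groups do not overlap, and the mutant held 1.90% of the wild-type level.

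**Figure D1:**
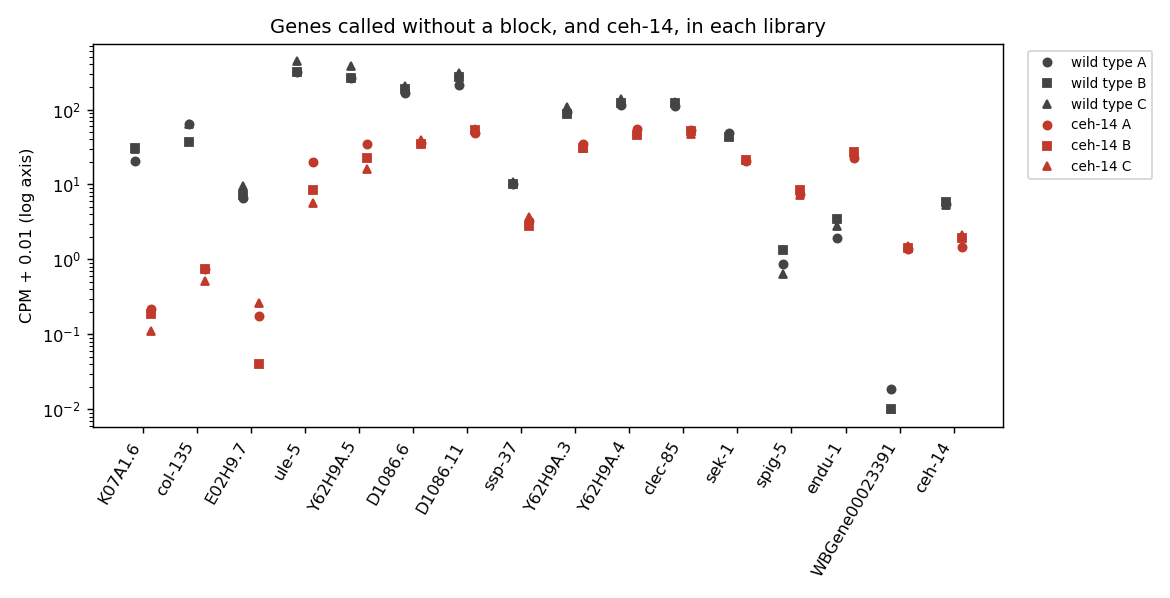
Level in each library of the 15 genes called without the block, and of ceh-14, as CPM plus 0.01 on a log axis. Grey marks are wild type, red marks are ceh-14, and circles, squares and triangles are replicates A, B and C. In all 15 genes the 3 mutant libraries lie wholly on one side of the 3 wild-type libraries.

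A run of 4 neighbouring genes on X fell together. Y62H9A.3, Y62H9A.4, Y62H9A.5 and ule-5 lie within 4.93 kb (X, 11879110 to 11884042). The uterine lumen expressed gene ule-5 stood at 315, 314 and 439 CPM in wild type and at 19.7, 8.47 and 5.68 CPM in the mutant. It fell by 4.96 ± 0.49 on the log2 scale (adjusted p = 0.0177). Y62H9A.5 went from 263, 264 and 375 CPM to 35, 22.8 and 16 CPM, a fall of 3.59 ± 0.32 (adjusted p = 0.0112). The other pair moved less: Y62H9A.3 kept 33.6% and Y62H9A.4 kept 40.7% of the wild-type level. The other ule genes did not pass the test: of 5 ule genes tested, ule-5 alone was called in either fit, and ule-3 stood at 519 to 617 CPM in wild type and 478 to 569 CPM in the mutant.

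On V, D1086.11 and D1086.6 lie within 7.31 kb (V, 14074460 to 14081766) and fell by similar amounts. D1086.6 read 165, 188 and 209 CPM in wild type and 35.2, 34.5 and 38.6 CPM in the mutant, a fall of 2.36 ± 0.13 (adjusted p = 0.00103). D1086.11 read 210, 272 and 311 CPM against 49.0, 53.7 and 54.6 CPM, a fall of 2.31 ± 0.16 (adjusted p = 0.00336). Both kept close to 20% of the wild-type level, at 19.3% and 19.8%.

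Neighbours did not always move the same way. On I, ssp-37, a member of a family related to the major sperm proteins, fell from 10.1, 10.2 and 10.8 CPM to 3.27, 2.78 and 3.65 CPM (fall of 1.66 ± 0.18, adjusted p = 0.0299). W02D9.6, which starts 0.628 kb before it, read 19.2, 20.8 and 29.6 CPM in wild type and 66, 58 and 57 CPM in the mutant (adjusted p = 0.0706 without the block and 0.00818 with it). Of the genes called with the block, 75 stood in 27 runs whose neighbouring starts were at most 20 kb apart. How often genes lie this close whether called or not was not tested, so nothing on clustering is read from this count.

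The p38 kinase pathway is the main innate immune signalling route of the C. elegans intestine, in which NSY-1 activates the kinase SEK-1 and SEK-1 activates PMK-1. Its gene sek-1 (X, 7816734 to 7821036) fell from 48.7, 42.8 and 46.1 CPM to 20.7, 21.3 and 20.9 CPM, which is 45.7% of the wild-type level (fall of 1.11 ± 0.13, adjusted p = 0.0337). It starts 284 kb from the end of ceh-14 on the same chromosome. The other 14 of the 15 pathway genes tested were not called in either fit.

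Genes that rose without the block numbered 3. The gene endu-1 (I, 9745967 to 9747923), of the EndoU family of endoribonucleases, stood at 1.90, 3.47 and 2.80 CPM in wild type and 22.8, 26.9 and 26.4 CPM in the mutant, a rise of 3.25 ± 0.25 (adjusted p = 0.00541). On V, spig-5 rose from 0.864, 1.33 and 0.633 CPM to 7.38, 8.47 and 7.17 CPM (rise of 3.01 ± 0.29, adjusted p = 0.0168). Its neighbour spig-4 went from 1.61, 3.25 and 3.11 CPM to 7.95, 9.85 and 8.13 CPM, and was called with the block only (adjusted p = 0.171 and 0.00988).

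The remaining rise was in WBGene00023391, a pseudogene of 72 bases (X, 86887 to 86958) that lies wholly inside WBGene00022205 on the opposite strand. It had 1, 0 and 0 counts in wild type and 67, 141 and 59 in the mutant, a ratio of 241 with a 95% interval of 42.9 to 9555 that covers counting error only (rise of 7.51 ± 0.51, adjusted p = 0.00336). Whether the counting used strand is not given in the sources used here, so reads of this pseudogene and of WBGene00022205 cannot be told apart. WBGene00022205 stood at 6.48, 6.77 and 5.59 CPM in wild type and 14.9, 15.3 and 13.4 CPM in the mutant (adjusted p = 0.0092 with the block).

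Among the 55 gene lists, cuticle collagens held the most genes called with the block. Only 79 of the 209 called genes stood in any list. The cuticle is rebuilt at each larval moult from collagens that are made in successive waves, and loss of single collagens can make animals short, long or rolling. Of 121 col genes tested, 21 fell and none rose with the block by edgeR's test, where 1.01% of all genes tested fell and 0.276% rose. Without the block edgeR called 1 of them, col-135, and DESeq2 called 4. Of 23 genes tested on a list of body-shape collagens, 10 fell with the block and none without it: rol-1, dpy-5, dpy-13, rol-6, sqt-3, lon-3, dpy-4, rol-8, sqt-2 and sqt-1. The list also holds dpy-18, which does not encode a collagen, and mec-5 and ram-2, which are not named for body shape. The median log2 fold change with the block was -0.95 over the body-shape list and -0.67 over the col genes, and -0.03 over all genes tested. The col median depended on the letters, at -0.54 without A, -0.18 without B and -0.97 without C, while that of the body-shape list stayed between -1.19 and -0.94.

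Collagen levels differed strongly between letters. The collagen rol-1 stood at 61.5, 85.6 and 19.5 CPM in wild type A, B and C and at 18.2, 20.2 and 6.44 CPM in the mutant. The groups overlap, since wild type C is close to mutant A and B, yet within each letter the mutant was lower. It fell by 1.81 ± 0.14 on the log2 scale with the block (adjusted p = 0.00297) and 1.89 ± 0.59 without it (adjusted p = 0.916).

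The same held for the other collagens. For dpy-5 the levels were 60.9, 102 and 22.9 CPM against 19.8, 27.3 and 8.59 CPM (adjusted p = 0.00336 with the block), and for col-73 they were 114, 209 and 46 CPM against 37, 54.7 and 18.5 CPM (adjusted p = 0.00338). In wild type, both genes were highest in B and lowest in C. All 10 called body-shape collagens and all 20 called col genes other than col-135 were lower in the mutant within A, within B and within C, which is what the block compares. The groups overlapped for all 10 body-shape collagens and for 18 of these 20 col genes.

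**Figure D2:**
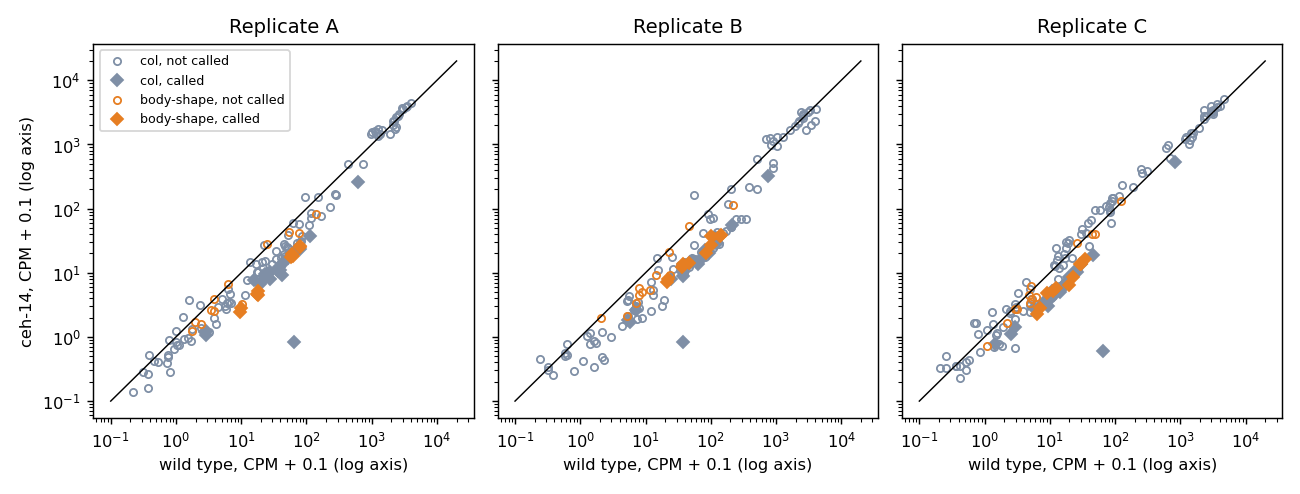
Collagen levels in the mutant (vertical axis) against wild type (horizontal axis) within each replicate letter, as CPM plus 0.1 on log axes, with a line of equal level. Blue marks are the 121 col genes, orange marks the 23 genes of the body-shape list, and filled diamonds the genes called with the block. The called genes lie below the line in each letter.

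The size of the fall differed between letters. Over all 121 col genes, the median log2 ratio of mutant to wild type, with 0.5 CPM added, was -0.61 in A, -1.19 in B and 0.04 in C, so the family as a whole was not lower in letter C. The summed level of the col genes was higher in the mutant in A and C and lower in B. Over all 23 genes of the body-shape list the median was -1.56, -1.32 and -0.49. The called members, which were chosen by their fall, had medians of -1.57, -1.82 and -1.19 (20 col genes) and of -1.69, -1.61 and -1.10 (10 body-shape collagens). Leaving out a letter from the blocked fit gave 12 falls in the body-shape list without A, 10 without B and 16 without C. For the col genes these counts were 34, 18 and 76, so leaving out letter A or letter C moves the count by over 1.5 times.

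A few genes of other cuticle lists fell with the block. Of 45 moulting and apical matrix genes tested, 3 fell with the block and none without it by edgeR's test: mlt-10, cut-2 and mlt-8. DESeq2 called 1 without the block. The cuticlin gene cut-2 stood at 31.4, 63 and 14.6 CPM in wild type and 7.32, 16.2 and 7.47 CPM in the mutant (adjusted p = 0.0192 with the block). Of 61 hedgehog-related and patched-related genes, which encode proteins of the epidermis and its matrix, 4 fell (grl-16, grl-15, grl-5 and grd-2), and grl-16 went from 59.2, 84.3 and 17.6 CPM to 21.5, 21.7 and 9.20 CPM (adjusted p = 0.0182). In the pqn and abu class, 2 of 57 fell, abu-14 and abu-1, where 1.01% of all genes did. Values above 0 were held by 15 of the 45, 18 of the 61 and 25 of the 57. Without letter C the blocked fit gave more calls over the whole table, with 828 falls and 399 rises among 17222 genes tested. In that fit the moulting list had 10 falls and the hedgehog-related list 21 falls and 2 rises. The pqn and abu class had 15 falls and 4 rises there. Genes of yolk and adult stage summed to 55662, 22783 and 32732 CPM in wild type and to 77673, 24943 and 47993 CPM in the mutant. The sum was higher in the mutant within each letter, but the members were not uniform: 7 had a higher and 2 a lower fitted level. The 2 were the collagens col-7 and col-62 (log2 fold changes of -0.92 and -0.89 with the block), lower in the mutant in A and B and higher in C. None of the 9 was called with edgeR's test, 5 had an unadjusted p under 0.05 with the block, and DESeq2 called 1 with the block and none without it. Developmental age within L4 was not measured, and its part in the collagen result was not tested.

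Among lists of defence genes, the dod and CUB-like effectors gave 9 falls among 20 tested with the block, where 1.01% of all genes fell. By edgeR's test none was called without the block, while DESeq2 called 8 falls. The 9 were dod-22, irg-5, dod-21, cld-1, irg-1, irg-8, dod-24, irg-4 and dod-17. The median over all 20 was -0.74. In 7 of the 9 the groups did not overlap, as in 130 of all 209 genes called with the block. Over all genes tested, 5.06% lay lower in every mutant library than in every wild-type library, but the 9 were picked as called falls, so nothing is read from that share. The gene dod-22 stood at 76.9, 82.6 and 50.5 CPM in wild type and 11.3, 5.80 and 1.95 CPM in the mutant, a fall of 3.69 ± 0.32 with the block (adjusted p = 0.00338, and 0.171 without it). The infection response gene irg-5 read 308, 189 and 190 CPM against 100.3, 59 and 31.4 CPM (adjusted p = 0.00442 with the block).

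Several of these genes are neighbours on IV. The run F55G11.8, dod-22, F55G11.2, F55G11.4, dod-17 and K10D11.2 spans 19.2 kb (IV, 12962808 to 12981991), and cld-1, dod-21 and dod-24 lie 6.34 kb from end to end before it (IV, 12935011 to 12941354). All 9 fell. At lower levels, dod-21 went from 4.84, 5.42 and 3.74 CPM to 0.308, 0.658 and 0.0253 CPM.

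C-type lectins, many of them secreted and induced by bacteria, gave 8 falls and 1 rise among 131 tested with the block, where 1.01% of all genes fell and 0.276% rose, with a median of -0.09. Without the block edgeR called 1 fall and DESeq2 called 3. The one called in both fits, clec-85 (IV, 2850886 to 2855456), stood at 111, 122 and 124 CPM in wild type and 53.6, 51.4 and 47.5 CPM in the mutant (fall of 1.21 ± 0.11, adjusted p = 0.0135), and 27.7% of its exon bases overlap another gene on the same strand. The lectin clec-67 went from 69.8, 54.5 and 34.8 CPM to 6.25, 2.22 and 0.811 CPM, a fall of 4.38 ± 0.33 with the block (adjusted p = 0.00257, and 0.176 without it). On II, clec-63, clec-65 and clec-66 fell as a run of neighbours over 11 kb. The rise was in clec-205, at 5.04, 2.46 and 3.43 CPM against 8.92, 5.97 and 6.11 CPM.

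Of 70 antimicrobial peptide and lysozyme genes, 3 fell with the block, where 1.01% of all genes did. Without letter C the count was 18 falls and 7 rises, where 828 of all 17222 genes tested fell and 399 rose. The neighbouring lysozymes lys-1 and lys-2 stood at 1006 to 1081 and 328 to 345 CPM in wild type, and at 456 to 730 and 63.4 to 185 CPM in the mutant (adjusted p = 0.0260 and 0.0237). The caenacin gene cnc-4 went from 2.89, 6.44 and 1.95 CPM to 1.21, 2.19 and 0.836 CPM. C17H12.8 also fell, from 165, 157 and 120 CPM to 35.2, 13.2 and 10.1 CPM (adjusted p = 0.00338 with the block).

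**Figure D3:**
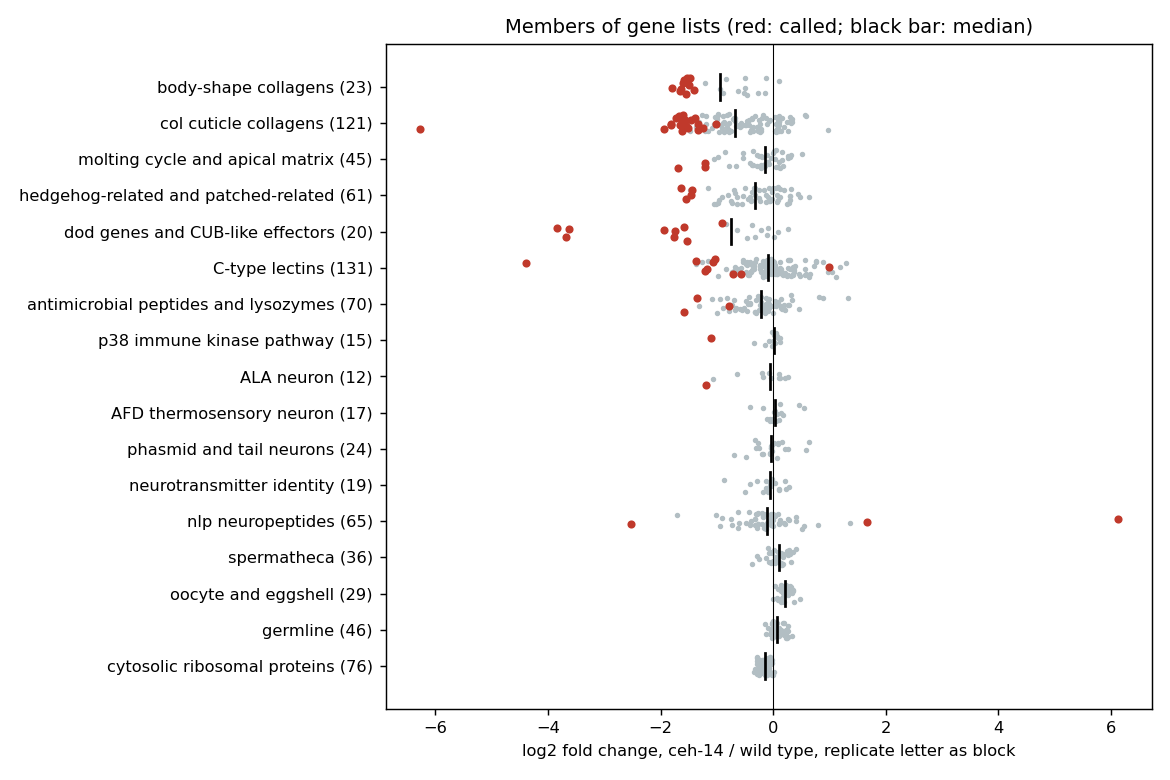
Log2 fold change of mutant over wild type, with the letter as block, for the tested members of 17 gene lists (number of members in brackets). Red points are called genes and black bars are list medians. Called genes are on the left in the collagen and the dod and CUB-like lists, the called lectins lie on the left apart from clec-205, and the AFD, phasmid, spermatheca and germline lists hold none.

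Among genes tied to neurons that use CEH-14, a single ALA gene was called. The neuropeptide gene flp-24, which acts in ALA in stress-induced sleep, stood at 10.9, 12.1 and 10.1 CPM in wild type and 4.03, 5.50 and 4.97 CPM in the mutant (fall of 1.19 ± 0.16 with the block, adjusted p = 0.0177, and 0.135 without it). It was 1 of 12 ALA genes tested, where 1.01% of all genes tested fell with the block. No ALA gene was called once letter B was left out of the blocked fit, against 1 without A and 3 without C. Over all genes tested, falls numbered 127 without B, 271 without A and 828 without C. Another ALA peptide gene, flp-13, read 6.25, 4.06 and 2.85 CPM against 2.61, 1.51 and 2.08 CPM and did not pass the test (adjusted p = 0.102 with the block). The ALA list did not move as a whole: 7 genes had a lower and 5 a higher fitted level with the block, with a median log2 fold change of -0.06. The peptide genes nlp-14 (0.27) and nlp-24 (0.10) were among the 5, and flp-7 (-0.65) and nlp-8 (-0.20), neither of them called, among the 7. How far genes of this list are used outside ALA was not examined. The cilium gene dyf-3, needed for the endings of sensory neurons, went from 7.25, 6.86 and 8.02 CPM to 4.11, 3.31 and 3.95 CPM (adjusted p = 0.0380 with the block). It was the only one of 51 cilium genes called, where 1.01% of all genes tested fell with the block. No cilium gene was called without letter B.

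Of 65 neuropeptide genes of the nlp class, 1 fell and 2 rose with the block, where 1.01% of all genes tested fell and 0.276% rose. The sleep-promoting peptide gene nlp-22 had 0, 1 and 0 counts in wild type and 14, 146 and 18 in the mutant, a ratio of 161 with a 95% counting interval of 28.5 to 6382 (adjusted p = 0.00637 with the block and 0.218 without it). Mutant B held 146 of these counts, and without it the log2 fold change of nlp-22 was 5.45, against 6.52 with all libraries and 5.21 to 8.61 without any other 1. Its neighbour nlp-2 rose from 1.76, 1.64 and 1.85 CPM to 4.79, 7.11 and 4.92 CPM (adjusted p = 0.0112 with the block). The gene nlp-70 was low in all libraries, at 0.316 to 0.665 CPM in wild type and 0.0253 to 0.103 CPM in the mutant. Of 115 chemoreceptor genes tested, srw-86 alone was called, lower in the mutant within each letter.

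No gene was called in the lists for AFD (17 tested), phasmid and tail neurons (24), neurotransmitter identity (19) or synaptic and pan-neuronal genes (30). Over these 88 genes edgeR's test gave 1 unadjusted p under 0.05 without the block and 6 with it, and DESeq2 called none. Their blocked log2 fold changes ran from -0.88 to 0.63. Most AFD genes are rare in whole-animal RNA: gcy-18, a receptor guanylate cyclase that AFD uses to sense temperature, stood at 0.593 to 1.09 CPM in wild type and 0.608 to 1.603 CPM in the mutant. A change in a few cells may not be detectable at this depth.

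Nor was any gene called for the spermatheca (36 tested), gonadal sheath and distal tip (26), vulva and uterus (28), spermatogenesis (41), oocyte and eggshell (29) or germline (46). These 205 genes gave 1 unadjusted p under 0.05 without the block and 23 with it, and DESeq2 called 1 with the block and none without it. Their log2 fold changes lay between -0.46 and 0.51. The spermatheca list includes genes also used elsewhere, such as act-1, lev-11 and pat-3 of the muscle list, so a change confined to the spermatheca may not show. The study took spermatheca-annotated genes dysregulated in tdp-1; ceh-14. It reported that most of them fell there and that ceh-14 mutants had a similar pattern. That set was not examined here. Of the 29 oocyte and eggshell genes 28 had a higher fitted level in the mutant, with a median of 0.21 with the block (median ratio 0.23 in A, 0.52 in B and -0.18 in C). Without letter C 7 of them rose, where 399 of all 17222 genes tested did. In all, 29 of the 55 lists held no call in either fit.

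Among enzymes, the aspartyl protease gene asp-17 rose with the block (3.53, 6.32 and 6.33 CPM against 7.30, 19.5 and 16.2 CPM), as did the cysteine protease gene cpr-1 (146, 157 and 163.6 CPM against 470, 334 and 230 CPM), and asp-6 fell. The fatty acid desaturase gene fat-5, which acts on palmitate, read 4.26, 31.8 and 47.2 CPM in wild type and 8.86, 66 and 62.3 CPM in the mutant. It was higher in the mutant within each letter, with letter A low in both genotypes (adjusted p = 0.0479 with the block). The glucuronosyltransferase gene ugt-44 fell from 99.7, 81 and 72.7 CPM to 49.9, 41.2 and 29.4 CPM (adjusted p = 0.00499 with the block). The EndoU gene endu-2 moved opposite to endu-1 and fell by 0.84 ± 0.11 (adjusted p = 0.0124 with the block).

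Of the 45 genes that rose with the block, 23 lay on X, or 1.01% of the X genes tested. On the other chromosomes 0.0410% to 0.366% of the genes tested rose. Further genes dysregulated with the block rose on III, V and X. C05B5.1 on III went from 0.147, 0.310 and 0.422 CPM to 2.08, 1.79 and 2.08 CPM. On V, ZK105.13 went from 0.441, 0.649 and 0.580 CPM to 3.19, 5.94 and 2.53 CPM. The transthyretin-like gene ttr-42 on X read 26, 23.8 and 32.4 CPM against 66.3, 59.4 and 55.9 CPM, and K11H12.4 on IV fell from 24, 32.1 and 19.8 CPM to 6.14, 10.02 and 5.93 CPM. In each of these 4 genes the groups were apart, as in 130 of all 209 genes called with the block. Over all genes tested, 2.16% lay higher and 5.06% lower in every mutant library than in every wild-type library. The 4 were picked from the called genes, so nothing is read from this.

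Genes at the left end of X were higher as a stretch. Of the 23 genes that start in its first 200 kb and average at least 1 CPM, 22 had a higher fitted level in the mutant, with a median log2 fold change of 0.87. In 20 of the 23, every mutant library was above every wild-type library, where 2.16% of all genes tested were. The stretch held 14 pseudogenes, 8 coding genes and a snoRNA. With the block 11 of the 23 were called, and without it none. Among the coding genes, Y73B3A.4 stood at 15.8, 10.3 and 11 CPM in wild type and 30.6, 25.2 and 25.8 CPM in the mutant, and chkr-1 at 4.64, 4.21 and 3.59 CPM against 10.2, 7.90 and 7.85 CPM.

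The next 4 genes (X, 209108 to 260110) also had higher fitted levels, with a median of 0.65, and none of them was called. The 12 genes from R57.2 on (X, 297234 to 400709) had a median of 0.01, and the 1784 genes on the rest of X had -0.01. Of 500 windows of 200 kb over the genome with at least 5 such genes, the first 200 kb of X was the one window with a median over 0.5, and 495 lay within 0.2 of 0. The next highest, 14.8 to 15 Mb on X, had a median of 0.41 over 29 genes. It held 10 neighbouring genes from rgs-10 to rbg-1 (X, 14962756 to 14987365), all higher, with a median of 0.87 and a lowest value of 0.13. The ends of this run were set with the values known, so nothing is read from its median or from all being higher. With the block 4 of the 10 were called, and without it none. Among them the Rab GTPase-activating gene tbc-1 read 52.1, 39.5 and 46.9 CPM against 116, 89.8 and 77.4 CPM (rise of 1.04 ± 0.11 with the block, adjusted p = 0.0075). Windows were examined after the values had been seen, and DNA copy number was not measured.

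**Figure D4:**
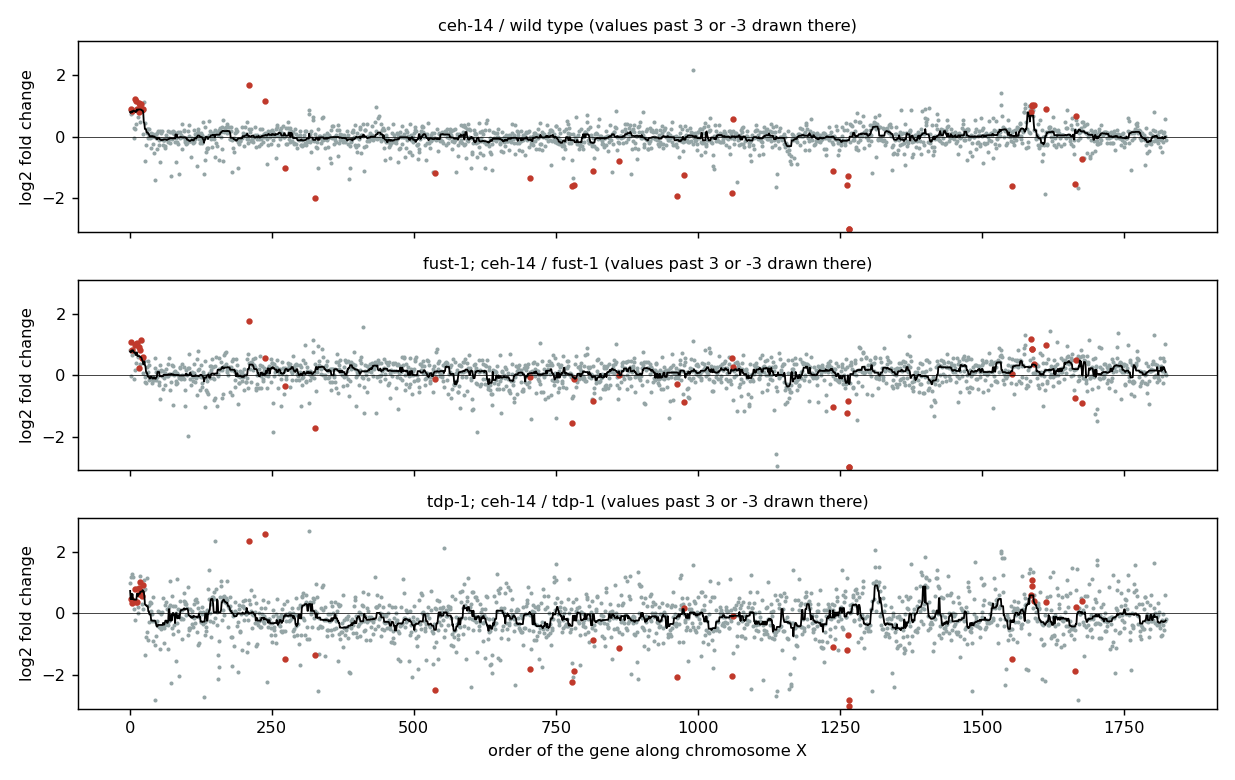
Log2 fold change of genes on X, in their order along the chromosome, for loss of ceh-14 in wild type, in the fust-1 background and in the tdp-1 background. Red points are genes called with the block in the first comparison, black lines are running medians over 15 genes, and values past 3 or -3 are drawn there. The left end lies above 0 in each panel.

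Loss of ceh-14 in the fust-1 and tdp-1 backgrounds uses none of these 6 libraries. On its own fit, it gave 8 calls in the fust-1 background (0.0494% of genes tested) and 619 in the tdp-1 background (3.67%). All 12 genes that fell without the block in wild type were also lower in both backgrounds, 6 of them called in fust-1 and 9 in tdp-1. Of the 3 that rose, 2 were higher in fust-1 and 3 in tdp-1, with 0 called in either. The gene ule-5 fell by 4.61 in the fust-1 background (adjusted p = 0.00217) and by 4.62 in the tdp-1 background (adjusted p = 0.0063), and col-135 fell by 6.72 and 6.60. Of the genes called with the block, 197 of 207 with a value had the same sign in the tdp-1 background (95.2%), and 176 of 206 in the fust-1 background (85.4%). Over all genes tested these shares were 47.8% and 66.8%. Of the genes that rose with the block, 40 of 44 with a value were higher in the tdp-1 background, 12 of them called there. In the fust-1 background 37 of 44 were higher, with 0 called. Without fust-1 C, whose ceh-14 level was low for its label, the fust-1 background gave 10 calls (0.0622%). All 12 genes that fell without the block were again lower. Of the genes called with the block, 192 of 208 had the same sign (92.3%, against 58.8% over all genes tested).

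The collagens differed between backgrounds in their values. The 20 called col genes had a median log2 fold change of -2.19 in the tdp-1 background, where all 20 were called, and of -0.16 in the fust-1 background, where none was. The gene rol-6 shows the levels: 9.83, 21.3 and 7.07 CPM in wild type, 2.73, 7.13 and 2.71 CPM in ceh-14, 29, 31.6 and 38.7 CPM in tdp-1 and 6.12, 10.6 and 8.63 CPM with ceh-14 lost there. In fust-1 it read 4.67, 11.8 and 1.88 CPM, and with ceh-14 lost 3.37, 1.13 and 13.6 CPM. Letter C turned the other way from A and B in the fust-1 background, and without fust-1 C the median of the 20 col genes there was -0.60, with none called.

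**Figure D5:**
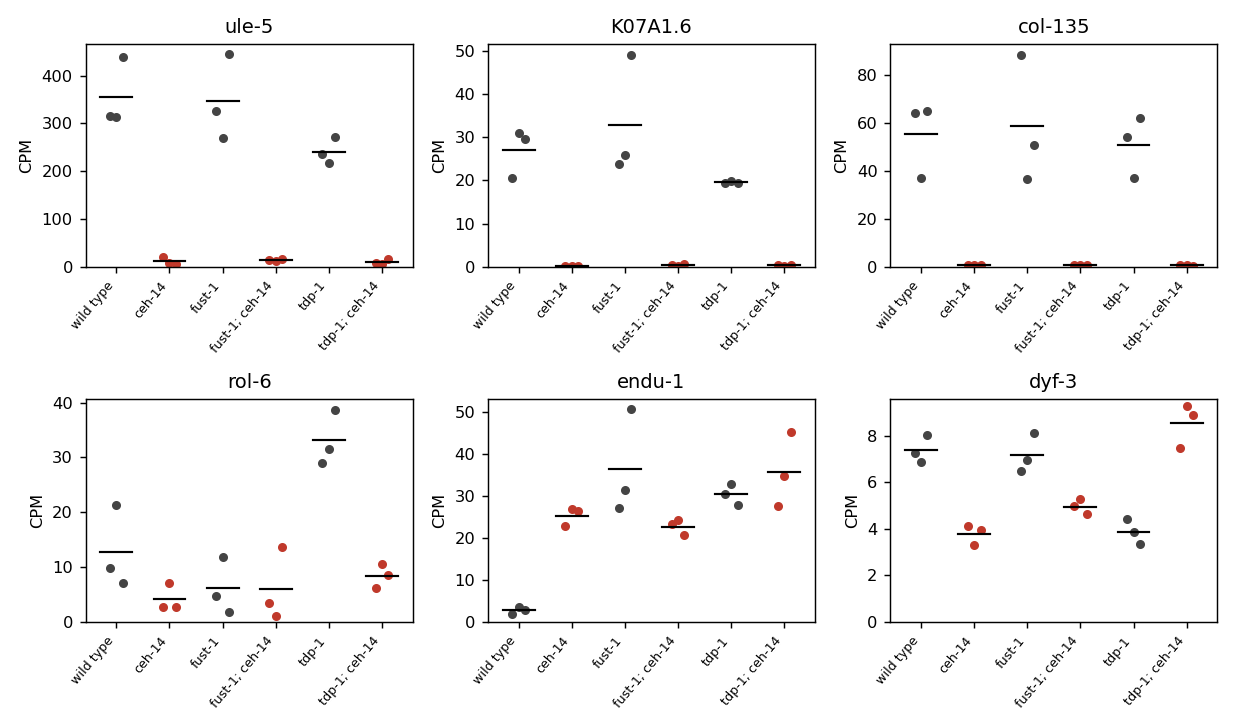
CPM of 6 genes in each library of the 6 genotypes, with bars at group means. Red points are genotypes that lack ceh-14. The genes ule-5, K07A1.6 and col-135 are near 0 wherever ceh-14 is lost, endu-1 is low in wild type alone, and dyf-3 moves the opposite way in the tdp-1 background.

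At the left end of X, the 23 genes had a median log2 fold change of 0.73 in the fust-1 background, with 21 higher (0.75 without fust-1 C), and of 0.64 in the tdp-1 background, with 22 higher. Relative to wild type, the window sat at 0.07 in fust-1 and -0.09 in tdp-1, on the scale of log2 CPM plus 0.5, and at 0.78 in ceh-14.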

How the data were processed

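Counts per gene were deposited by the authors as whole, unnormalized numbers. The labels' processing notes name STAR and HTSeq, with WBcel235 as the genome build. The summary rows for reads in no gene (0.461% to 0.625% of records in these 6 libraries), in more than 1 gene (1.89% to 2.11%) or at more than 1 position (5.89% to 10.6%) stayed out of library sizes and tests. Names and positions came from Ensembl release 115, which holds 46364 of the 46726 genes. Fits used R 4.3.3, edgeR 4.0.16 (filterByExpr, TMM, quasi-likelihood, Benjamini-Hochberg) and DESeq2 1.42.0, after tests on simulated data. SE is the absolute log2 fold change over the square root of F. Intervals cover counting error only.

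The letters were taken to pair the libraries, since deviations from the group means correlated between same-lettered libraries at 0.77 (A), 0.53 (B) and 0.19 (C). What a letter marks is not stated, and ceh-14 C correlated more with wild type B (0.31). No 2 libraries repeated each other.

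The members, and the 55 gene lists, were chosen with earlier results of these data known. The pattern for cytochrome P450 genes matched 1 gene, so that list says nothing of the class. Named were ceh-14, all genes called without the block, up to 15 dysregulated genes in each direction with it, up to 4 called members of each list (otherwise 2), and called neighbours within 20 kb. Others in the text were chosen after their values were seen, as were the windows, the blocked fits without a letter, DESeq2 with the block, the fit without fust-1 C and the tests of differences between backgrounds.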

Additional observations from a re-analysis of the deposited data

Results flagged for a closer look

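The effect of losing ceh-14 differed between backgrounds for 3 of the genes called here, by edgeR's interaction test adjusted over all genes tested, a test added after the values had been seen. The effect on endu-1 was 3.88 ± 0.36 lower on the log2 scale in fust-1 than in wild type (difference -3.88, adjusted p = 0.00335) and differed by -3.001 ± 0.33 in tdp-1 (adjusted p = 0.00447). Its level was 1.90 to 3.47 CPM in wild type and 20.7 to 50.7 CPM in all 15 libraries of the other genotypes, ceh-14 mutant or not. For the pseudogene WBGene00023391 the differences were -7.29 ± 0.83 (fust-1, adjusted p = 0.0106) and -6.54 ± 0.56 (tdp-1, adjusted p = 0.000714), and it too was close to 0 in wild type alone, at 0.64 to 1.83 CPM in fust-1 and tdp-1 libraries.

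For dyf-3 the effect differed by 2.10 ± 0.25 in tdp-1 (adjusted p = 0.00674). It stood at 4.40, 3.87 and 3.34 CPM in tdp-1 and 7.47, 9.26 and 8.88 CPM with ceh-14 lost there, the opposite direction to wild type.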

How the results depend on the processing

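Without the block, 15 genes were called and 6 dysregulated. The counts were 144 and 70 with DESeq2, 39 and 17 with no filter on low counts, 35 and 22 with all 18 libraries in one fit, 209 and 67 with the replicate block, and 402 and 201 with DESeq2 and the replicate block. All 15 were called under each of these. A filter of 1 CPM in 3 libraries and the size factors of DESeq2 each gave 16 called. Leaving out 1 library gave 5 to 22 called and 0 to 10 dysregulated. The lowest came without wild type C, where edgeR gave 780 unadjusted p under 0.05, and counts also moved by over 1.5 times without wild type B (9 and 3), ceh-14 B (8 and 1) and ceh-14 C (7 and 2), and, for dysregulated genes, without ceh-14 A (10). The calls of sek-1 and ssp-37 ended without any 1 of the 6 libraries, those of ule-5, Y62H9A.4, clec-85 and spig-5 in 4 of the 6 cases, of E02H9.7 and Y62H9A.3 in 3, of Y62H9A.5 in 2 and of endu-1 in 1, and those of K07A1.6, col-135, D1086.6, D1086.11 and WBGene00023391 held without each of them. With the block, leaving out a letter gave 172 to 1227 called and 79 to 350 dysregulated, against 209 and 67: without A 350 and 227, without C 1227 and 350. DESeq2 with the block gave 402 and 201. None of the 69 genes taken by the naming rule changed sign under the alternatives run for them, and the blocked fits without a letter were summarised by counts and medians only. The same-sign counts of the 15 genes in the fust-1 (14) and tdp-1 (15) backgrounds were the same with the replicate block. Depth limits the low genes: ceh-14 itself had 70 to 191 counts in mutant libraries.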
